A study of Homo sapiens with 6 samples.

Results

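The ATF4 arm of the integrated stress response was followed here through 10 genes, which were chosen by name with earlier results of these data known. They were ATF4, DDIT3, CEBPB, TRIB3, PPP1R15A, CHAC1, STC2, ASNS, PSAT1 and PHGDH. Every probe set annotated to 1 of these symbols alone was taken, which gave 25 of the 49293 probe sets that are not controls, and 10 of 18132 named genes. One further probe set, shared by PHGDH and MZT2B in the annotation, was left out. The sh-PNO1 group was HCT116 cells, a human colorectal cancer line, collected 72 h after transduction with a lentivirus carrying a short hairpin RNA (shRNA) against PNO1, a factor needed to finish the small ribosomal subunit. The sh-Ctrl group was the same line with a lentivirus carrying a control shRNA. Each group held 3 arrays, and the labels name no second shRNA against PNO1. Whether replicates were separate cultures is not stated in the labels, so p-values cover only array-to-array spread, possibly of technical origin.

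In this response, kinases that sense a lack of amino acids or of heme, unfolded protein in the endoplasmic reticulum (ER) or double-stranded RNA phosphorylate the initiation factor eIF2. General translation then slows, while the ATF4 messenger is translated better because of short reading frames ahead of its coding sequence. ATF4, a bZIP transcription factor, raises transcription of genes for amino acid synthesis and uptake, of DDIT3 (CHOP), and of feedback genes that let translation recover. An array measures messenger level and therefore gives no view of ATF4 protein or of eIF2 phosphorylation.

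The regulatory sequence through which ATF4 is best known to act is a composite C/EBP-ATF element, searched here as TGATGNAAN. AP-1 sites (TGANTCA), bound by JUN and FOS family dimers, and the full cyclic AMP response element (TGACGTCA) were searched as well, on both strands, in the RefSeq promoter windows of GRCh38.p14, which run from 250 bases before to 50 bases after each transcript start. All 10 genes had such a window, 16 windows in all, and the 3 motifs did not overlap each other there. The composite element matched in 2 of the 16 windows (ASNS and CHAC1) and in 3.61% of all 35116 windows. The AP-1 motif matched in 2, both of DDIT3 and at the same site, and in 7.71% of all. The cyclic AMP element matched in 1 (PPP1R15A) and in 1.85% of all. Sequence outside these windows was not searched, so a gene without a match here may hold the motif elsewhere. The ASNS match is the one known as nutrient-sensing response element 1. The 4 stretches below are shown because they hold these matches; capitals mark the matched motif, and for CHAC1 it lies on the opposite strand. DDIT3 is given at chr12:57520515-57520764 (minus strand), ASNS at chr7:97872409-97872528 (minus strand), CHAC1 at chr15:40953221-40953320 (plus strand) and PPP1R15A at chr19:48872321-48872420 (plus strand).
DDIT3: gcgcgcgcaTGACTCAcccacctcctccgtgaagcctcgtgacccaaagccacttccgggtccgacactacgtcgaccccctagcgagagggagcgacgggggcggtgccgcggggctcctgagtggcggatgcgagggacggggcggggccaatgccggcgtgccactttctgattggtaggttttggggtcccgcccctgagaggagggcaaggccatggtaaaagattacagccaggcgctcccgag
ASNS: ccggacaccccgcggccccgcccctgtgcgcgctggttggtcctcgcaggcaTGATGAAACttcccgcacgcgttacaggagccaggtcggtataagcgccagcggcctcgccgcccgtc
CHAC1: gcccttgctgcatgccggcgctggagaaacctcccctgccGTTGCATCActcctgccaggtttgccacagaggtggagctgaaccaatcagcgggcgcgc
PPP1R15A: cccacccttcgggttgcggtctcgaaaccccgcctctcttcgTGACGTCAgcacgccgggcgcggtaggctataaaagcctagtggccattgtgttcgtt

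Intensities are linear, and tests were made on log2 values with limma, sh-PNO1 minus sh-Ctrl, adjusted over all 49293 probe sets; a probe set was called at an adjusted p under 0.05. PNO1 itself was lower on its brightest probe set, with an intensity of 106 ± 1.98 in sh-PNO1 and 534 ± 1.70 in sh-Ctrl (SD, n = 3 each). Median intensity was 25.6 to 25.9 on the sh-PNO1 arrays and 25.6 on each sh-Ctrl array. For ACTB, the log2 difference between the 3' and 5' control probe sets, a sign of RNA quality, was 2.25 on sh-PNO1 replicate 2 and 1.73 to 1.87 on the other arrays. For GAPDH that difference separated the groups, at −0.056, −0.077 and −0.058 on the sh-PNO1 arrays and −0.028, −0.024 and −0.013 on the sh-Ctrl arrays; the part of RNA quality in the results below was not tested. Of the epithelial markers EPCAM had an intensity of 1908 in sh-PNO1 and 1998 in sh-Ctrl, and KRT18 of 2412 and 2469. Dim ones were VIL1 at 4.38 and 4.88, CEACAM5 at 9.89 and 10.2 and CDX1 at 23.0 in both groups. The 9 epithelial markers summed to 9527 to 9887 on sh-PNO1 arrays and 8767 to 9180 on sh-Ctrl arrays, with 2 of 9 called higher (CDH1 and KRT19); their part in the results below was not tested. None of the 6 fibroblast, 4 leukocyte and 4 endothelial markers measured was called, and their summed intensities were at most 65.0, 40.8 and 90.3 on the sh-PNO1 arrays and at most 64.4, 36.9 and 89.3 on the sh-Ctrl arrays. In such bulk RNA, fewer cells that express a gene and less RNA per cell cannot be told apart.

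Of the 25 probe sets 14 were called higher in sh-PNO1 and 0 lower, where 14.8% of all probe sets were called higher and 13.2% lower. Because the genes were chosen with earlier results of these data known, the shares here are not those of a blind choice. The 14 belonged to 5 genes: DDIT3 (2 of 2 probe sets), STC2 (3 of 3), ASNS (4 of 4), PSAT1 (4 of 8) and TRIB3 (1 of 2). In 15 of the 25 all 3 sh-PNO1 arrays lay above all 3 sh-Ctrl arrays, against 21.9% of all probe sets. The median log2 fold change was 0.20, beside 0.01 over all probe sets, and 24 of 25 were above 0. Probe sets of 1 gene are not independent, and PSAT1 and ASNS gave 8 and 4 of the 25. Apart from DDIT3 and 1 probe set of STC2, no probe set exceeded 0.28 on the log2 scale. With each gene represented by its brightest probe set and adjustment over 18132 genes, 7 of 10 genes were called higher and 0 lower, where 20.0% of all genes were called higher and 14.2% lower. In mean log2 intensity the 10 genes ranked from percentile 59.3 (DDIT3) to 98.9 (ATF4) of all genes, and the part of brightness in these shares was not tested. The count of 7 adds CHAC1 (adjusted p = 0.0452) and PHGDH (adjusted p = 0.049) to the 5 above, and with PSAT1 (adjusted p = 0.0489) these were the calls nearest the threshold. With 1 array left out the count was 4 to 5 genes, 4 without sh-PNO1 replicate 1 and without sh-Ctrl replicate 3, and the losses were among these 3. Without sh-PNO1 replicate 2 CHAC1, PSAT1 and PHGDH were all lost as well (adjusted p = 0.136, 0.145 and 0.0916 in limma). In that fit PPP1R15A, not among the 7, was called higher (adjusted p = 0.0136).

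**Figure D1:**
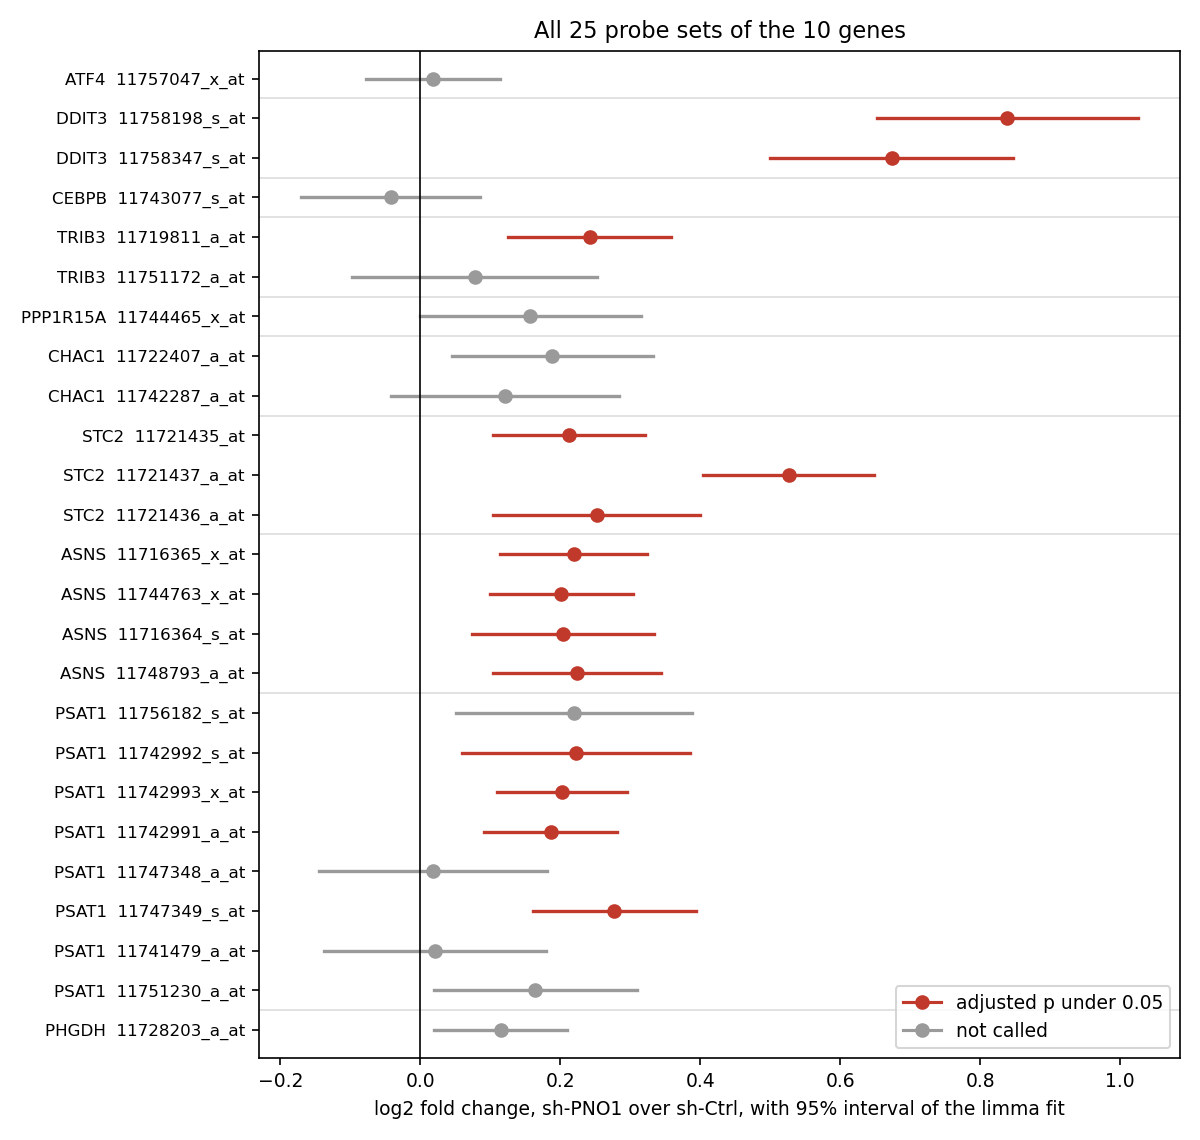
Log2 fold change of each of the 25 probe sets, sh-PNO1 over sh-Ctrl (horizontal axis), with the 95% interval of the limma fit as a line; red marks an adjusted p under 0.05 and grey the rest. DDIT3 stands farthest to the right at 0.84 and 0.67, while ATF4 and CEBPB lie at 0.018 and −0.042 with intervals across 0.

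The 3 transcription factors of the group did not move together. ATF4 (chromosome 22, GRCh38.p14 39520559 to 39522686), the factor that names the response, had intensities of 2434, 2407 and 2356 in sh-PNO1, against 2344, 2349 and 2413 in sh-Ctrl. The groups overlapped, with the highest control array above 2 of the 3 sh-PNO1 arrays. The log2 fold change was 0.018 ± 0.042 SE (adjusted p = 0.787), with a 95% interval of −0.078 to 0.11. The probe set has the suffix _x_at, which marks probes that can match other transcripts.

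DDIT3 (chromosome 12, 57516588 to 57520517) encodes CHOP, a C/EBP family factor that is induced by ATF4 and can promote cell death in prolonged stress. Its brighter probe set had 101, 94.6 and 84.0 in sh-PNO1, against 52.4, 55.7 and 48.2 in sh-Ctrl. All 3 sh-PNO1 arrays lay above all 3 controls, and the gap between the groups exceeded the range within either. DDIT3 rose by 0.84 ± 0.081 SE on the log2 scale, a 1.79-fold difference (adjusted p = 0.000177). Its second probe set had 72.2, 77.8 and 66.2 in sh-PNO1, against 42.3, 48.7 and 44.5 in sh-Ctrl, again without overlap, and rose by 0.67 ± 0.075 SE (adjusted p = 0.000366). Both probe sets have the suffix _s_at, given to probes shared by several transcripts.

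CEBPB (chromosome 20, 50190583 to 50192690), a C/EBP factor that can pair with ATF4 on the composite element, had 225, 237 and 222 in sh-PNO1, against 222, 248 and 235 in sh-Ctrl. The groups overlapped, and the log2 fold change was −0.042 ± 0.055 SE (95% interval −0.17 to 0.086, adjusted p = 0.623).

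**Figure D2:**
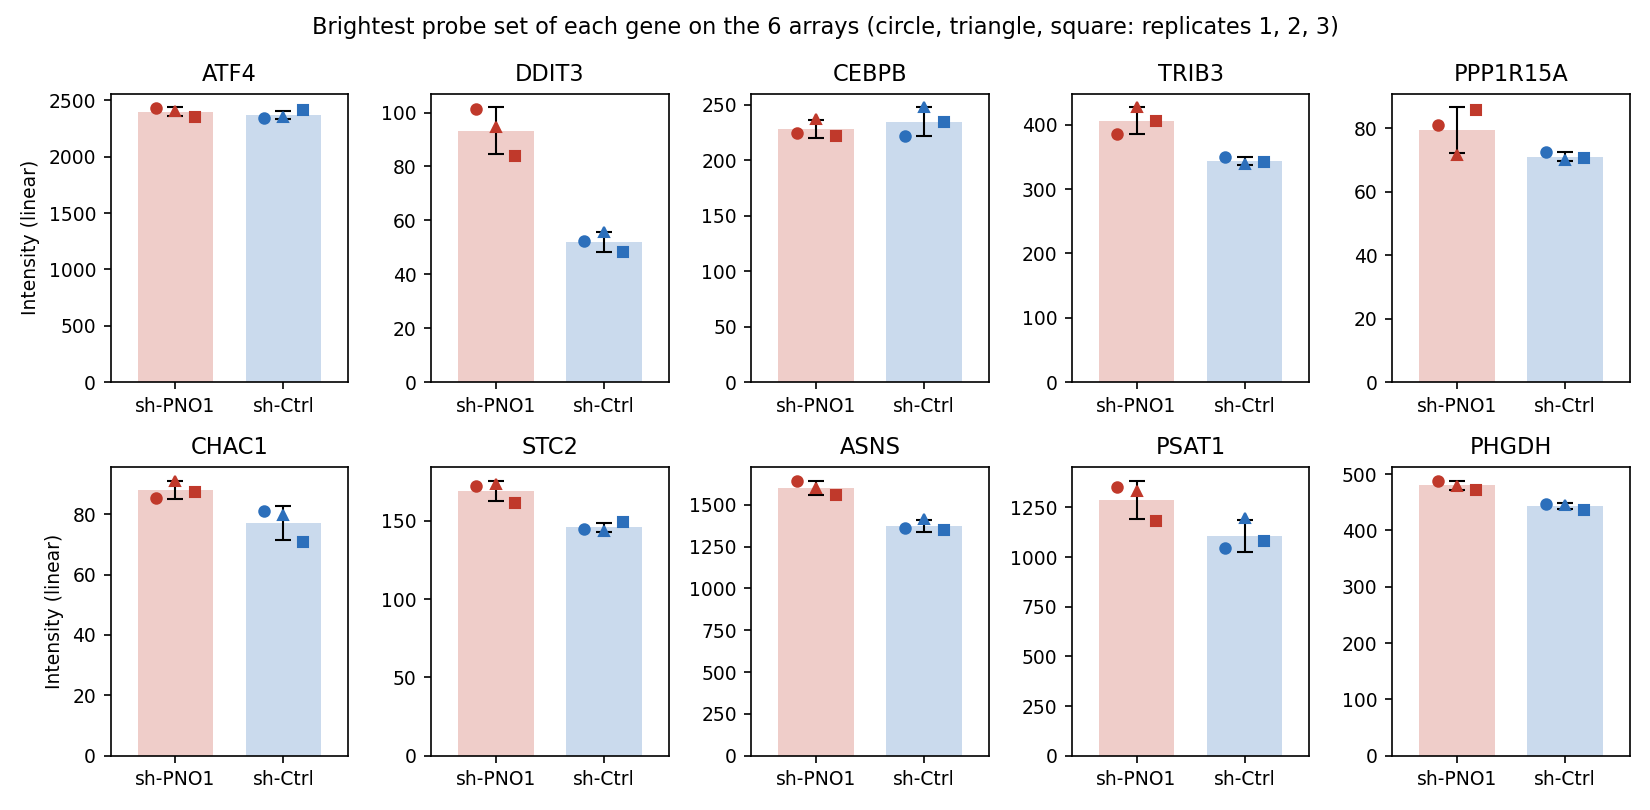
Linear intensity (vertical axis, from 0) of the brightest probe set of each of the 10 genes on the 3 sh-PNO1 arrays (red, left) and the 3 sh-Ctrl arrays (blue, right); bars are means and whiskers SD. The DDIT3 means of 93.3 and 52.1 are far apart, those of ASNS, PSAT1, TRIB3 and STC2 differ by 15.9 to 18.3% and the arrays of ATF4, CEBPB, PPP1R15A and PSAT1 overlap between groups.

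Feedback in the pathway runs through TRIB3, a pseudokinase that binds and restrains ATF4 and DDIT3, and PPP1R15A (GADD34), the inducible subunit that directs protein phosphatase 1 to eIF2. TRIB3 (chromosome 20, 380760 to 397559) had 386, 427 and 406 in sh-PNO1, against 350, 338 and 342 in sh-Ctrl on its brighter probe set. These groups were apart, and TRIB3 rose by 0.24 ± 0.050 SE (adjusted p = 0.0083). Its dim second probe set had 33.8, 27.4 and 29.7 in sh-PNO1, against 28.9, 29.1 and 27.8 in sh-Ctrl. There the groups overlapped and no call was made (0.078 ± 0.076 SE, adjusted p = 0.50).

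PPP1R15A (chromosome 19, 48872421 to 48876058) had 81.0, 71.5 and 85.7 in sh-PNO1, against 72.6, 69.9 and 70.6 in sh-Ctrl. The sh-PNO1 replicate 2 array, the one with the large ACTB 3' to 5' difference, fell inside the control range, and the other 2 lay above it. The log2 fold change was 0.16 ± 0.068 SE (adjusted p = 0.133). Without that array it was 0.23 and was called (adjusted p = 0.0203), so for values scaled as deposited that 1 array decides this call. With every array kept but scaled to equal housekeeping means it was also called (0.21, adjusted p = 0.0468). The part of RNA quality in this difference was not tested.

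CHAC1 and STC2 are effectors of the response. CHAC1 (chromosome 15, 40953471 to 40956512), a cytosolic enzyme that degrades glutathione, had 85.2, 91.1 and 87.3 in sh-PNO1, against 81.1, 79.8 and 70.8 in sh-Ctrl. The groups were apart, but by less than the range within either. The log2 fold change was 0.19 ± 0.062 SE and missed the threshold over all probe sets (adjusted p = 0.0572). Its dimmer probe set stood at 0.12 ± 0.070 SE with overlapping groups (adjusted p = 0.252).

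STC2 (chromosome 5, 173314723 to 173328414), stanniocalcin 2, is a secreted glycoprotein whose messenger is induced by ER stress through ATF4. Its brightest probe set had 172, 174 and 162 in sh-PNO1, against 145, 144 and 149 in sh-Ctrl, and rose by 0.21 ± 0.047 SE (adjusted p = 0.011). A dimmer one had 73.6, 72.2 and 67.3 in sh-PNO1, against 51.3, 47.8 and 48.8 in sh-Ctrl, and rose by 0.53 ± 0.053 SE (adjusted p = 0.000215). The third rose by 0.25 ± 0.064 SE (adjusted p = 0.0205), a call lost without sh-PNO1 replicate 2 or without any 1 control array (adjusted p of up to 0.0775). The groups did not overlap on any of the 3, but the sizes differed between probe sets of this 1 gene, with 95% intervals of 0.10 to 0.32 and 0.40 to 0.65 for the first pair.

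**Figure D3:**
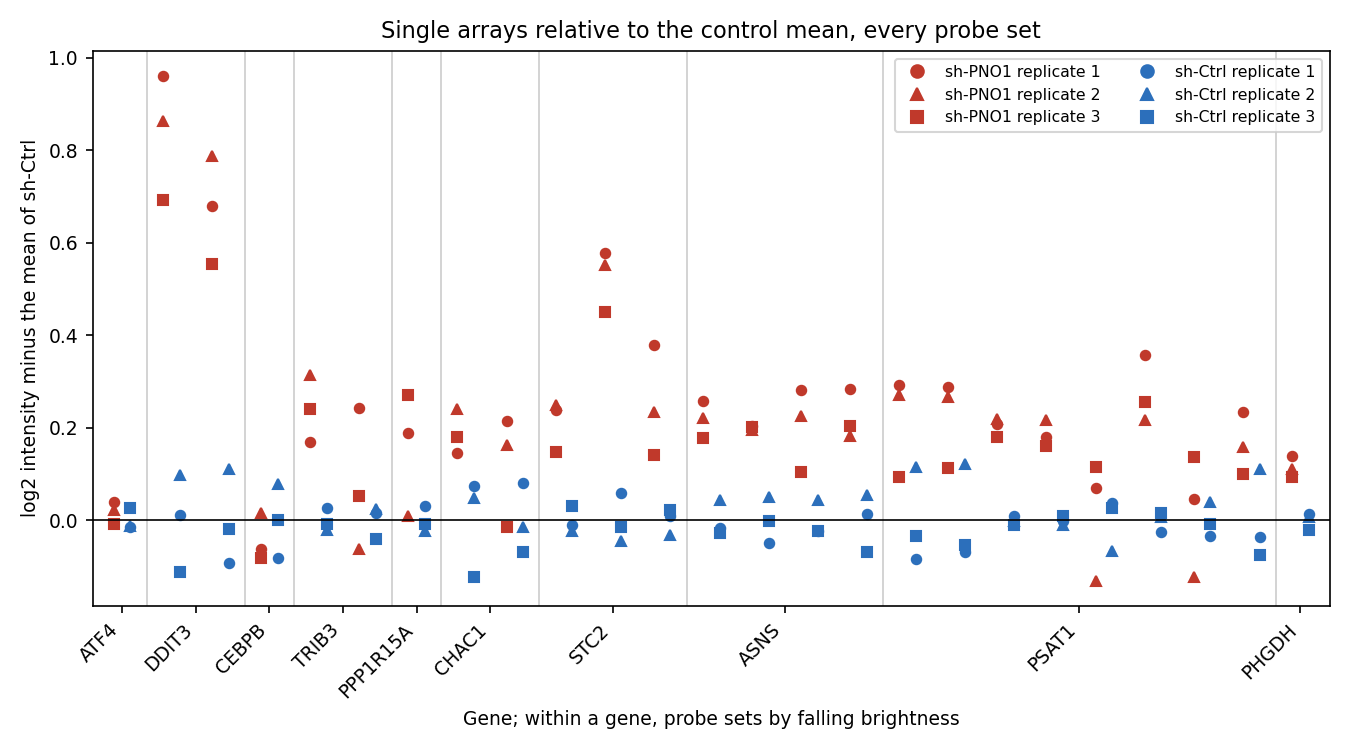
Log2 intensity of each array minus the sh-Ctrl mean (vertical axis) for every probe set, gene by gene, with sh-PNO1 in red and sh-Ctrl in blue and replicates 1 to 3 as circle, triangle and square. The sh-PNO1 points of DDIT3, STC2 and ASNS stand clear of the control points, and 2 PSAT1 probe sets have sh-PNO1 replicate 2 below all controls.

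The amino acid enzymes changed by small amounts. ASNS (chromosome 7, 97851677 to 97928441), which makes asparagine from aspartate and glutamine, had 1644, 1602 and 1557 in sh-PNO1, against 1360, 1417 and 1349 in sh-Ctrl on its brightest probe set. Its 4 probe sets gave nearly the same size, 0.20 to 0.22 on the log2 scale, each with separate groups and each called (adjusted p = 0.00806 to 0.0284). They measure 1 gene and are not independent. The call of the third brightest was lost in 5 of the 6 fits with 1 array left out, all but that without sh-PNO1 replicate 3 (adjusted p of up to 0.0900).

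PSAT1 (chromosome 9, 78297125 to 78330093) and PHGDH (chromosome 1, 119711934 to 119744215) catalyse successive steps of serine synthesis from 3-phosphoglycerate. The brightest PSAT1 probe set had 1354, 1334 and 1180 in sh-PNO1, against 1044, 1198 and 1080 in sh-Ctrl; sh-PNO1 replicate 3 fell below the highest control array. Of the 8 PSAT1 probe sets 4 were called, at 0.19 to 0.28; on 1 of them, the second brightest (0.22, adjusted p = 0.0489), the groups overlapped and the call was lost without sh-PNO1 replicate 1 or 2 or sh-Ctrl replicate 1 or 3 (adjusted p of up to 0.157). The other 4 comprised 2 at 0.16 and 0.22 that missed the threshold (adjusted p = 0.0901 and 0.0591) and 2 at 0.019 and 0.021. On the last pair sh-PNO1 replicate 2 was the lowest of all 6 arrays, at 168 and 155, and without it they stood at 0.093 and 0.092 (adjusted p = 0.274 and 0.271). PHGDH, with 1 probe set, had 488, 479 and 473 in sh-PNO1, against 447, 445 and 437 in sh-Ctrl. Its groups were apart with narrow ranges, yet the difference was only 8.3% (0.11 ± 0.041 SE, adjusted p = 0.0750 over all probe sets).

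Within sh-PNO1, replicate 3 was the lowest array in 16 of the 25 probe sets and replicate 1 the highest in 15. Within sh-Ctrl, replicate 3 was lowest in 10 and replicate 2 highest in 12. The brightest probe sets of ATF4, which was not called, and of DDIT3, ASNS, PSAT1 and PHGDH had sh-PNO1 replicate 1 highest and replicate 3 lowest, while those of CEBPB, TRIB3, PPP1R15A, CHAC1 and STC2 did not.

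The wider pathway was read from 7 textbook lists holding 133 measured genes, each by its brightest probe set. Of these 31 were called higher and 44 lower, with a median log2 fold change of −0.017, beside 0.025 over all genes. The shares were 23.3% higher and 33.1% lower, against 20.0% and 14.2% of all genes, so the higher share lay near that of all genes.

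Around eIF2 itself, 8 of 23 genes rose and 4 fell (median 0.088), or 34.8% and 17.4%, against 20.0% and 14.2% of all genes. The higher count was 5 with the probe sets of each gene averaged, and the lower share lay near that of all genes. PPP1R15B, the constitutive counterpart of PPP1R15A, rose by 0.80 ± 0.053 SE with 4 of 4 probe sets higher (415 ± 27.5 in sh-PNO1, 237 ± 1.92 in sh-Ctrl; SD, n = 3 each). EIF2S1, the subunit that the kinases phosphorylate, rose by 0.37 and EIF2B2, a subunit of the exchange factor, by 0.36. DNAJC3, a co-chaperone that inhibits the kinases EIF2AK3 and EIF2AK2, changed by −0.83 ± 0.050 SE, NCK1, an adaptor, by −0.36, EIF2B3, another exchange factor subunit, by −0.23, and IMPACT, an inhibitor of EIF2AK4 signalling, by −0.33. The IMPACT call was lost in 5 of the 6 fits with 1 array left out, all but that without sh-PNO1 replicate 2 (adjusted p of up to 0.153). Of the 4 eIF2 kinases, EIF2AK2 (PKR) rose by 0.31, and EIF2AK1 (HRI), EIF2AK3 (PERK) and EIF2AK4 (GCN2) stood at −0.0035, −0.066 and −0.017 without a call (adjusted p = 0.956, 0.254 and 0.889).

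Among other bZIP factors 4 of 23 rose and 8 fell (median 0.015), or 17.4% and 34.8%, against 20.0% and 14.2% of all genes, so the higher share lay near that of all genes. The lower count was 4 at an adjusted p under 0.01 and with unmoderated variances. ATF3, a stress-induced factor downstream of ATF4, rose by 0.95 ± 0.054 SE (147 ± 9.16 in sh-PNO1, 76.0 ± 2.18 in sh-Ctrl; SD, n = 3 each) with 4 of 7 probe sets higher. The AP-1 genes JUN and FOSL2 rose by 0.96 and 0.81, and BATF3 by 0.20, the last a call lost without sh-PNO1 replicate 2 or 3 or sh-Ctrl replicate 2 or 3 (adjusted p of up to 0.0641). NFE2L2, which encodes the antioxidant regulator NRF2, changed by −0.75 with both probe sets lower.

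Amino acid and one-carbon enzymes beyond the 3 above had 7 of 18 higher and 4 lower (median 0.054), or 38.9% and 22.2%, against 20.0% and 14.2% of all genes. The higher count was 4, or near the share of all genes, without sh-Ctrl replicate 1, without sh-Ctrl replicate 3 and when _x_at and _s_at probe sets were dropped, and 3 at an adjusted p under 0.01. GOT1, the cytosolic aspartate aminotransferase, rose by 0.64 ± 0.056 SE and MTHFD2, a mitochondrial folate enzyme, by 0.32 ± 0.038 SE. ALDH18A1 and PYCR1, both of proline synthesis, changed by −0.46 and −0.20, and the folate enzymes MTHFD2L and MTHFD1 by −0.24 and −0.15; the MTHFD1 call was lost without sh-PNO1 replicate 2 or 3 or sh-Ctrl replicate 1 or 2 (adjusted p of up to 0.0959). PSPH, the third enzyme of serine synthesis, stood at 0.10 (adjusted p = 0.0838).

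Of 12 amino acid transporters reported as ATF4 targets 0 were called higher and 7 fell, with a median of −0.16; 58.3% were thus lower, against 14.2% of all genes, and 20.0% of all genes were higher. In limma 9 had an unadjusted p under 0.05, the 7 that fell and, with higher values, SLC1A4 (0.15) and SLC43A1 (0.17). Under other settings 3 were called higher with equal housekeeping means and 2 with the most variable probe sets. The count was 1 with probe sets averaged, when _x_at and _s_at were dropped or without sh-Ctrl replicate 1. SLC7A5 (LAT1), which imports large neutral amino acids, had 181 ± 1.42 in sh-PNO1 and 332 ± 15.5 in sh-Ctrl (SD, n = 3 each), a change of −0.87 ± 0.046 SE; its other probe set stood at −0.16. SLC1A5 (ASCT2), a glutamine carrier, changed by −0.76 with 3 of 3 probe sets lower, SLC38A1, another glutamine carrier, by −0.45 with 5 of 5, and SLC3A2, the heavy chain partner of SLC7A5, by −0.26 with 7 of 7. The asparagine enzyme ASNS and the glutamine carriers, all listed as targets of ATF4, moved in opposite directions.

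Of 14 genes for tRNA synthetases and the tRNA exporter XPOT 6 rose and 2 fell (median −0.013), or 42.9% and 14.3%, against 20.0% and 14.2% of all genes. The lower share was that of all genes, and its count was 4 with the most variable probe sets. That count was 1 with equal housekeeping means, at an adjusted p under 0.01, with unmoderated variances and when _x_at and _s_at were dropped. It was also 1 without sh-PNO1 replicate 2 or 3 or sh-Ctrl replicate 2 or 3. SARS1, NARS1 and TARS1, the enzymes for serine, asparagine and threonine, rose by 0.41, 0.26 and 0.19, while YARS1, that for tyrosine, changed by −0.76 and XPOT by −0.18. The XPOT call was lost without sh-PNO1 replicate 2 or 3 or sh-Ctrl replicate 2 or 3 (adjusted p of up to 0.107).

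Of 24 stress, growth and death effectors 6 rose and 4 fell (median 0.00071), or 25% and 16.7%, both near the 20.0% and 14.2% of all genes. The lower count was 1 when _x_at and _s_at probe sets were dropped. MAP1LC3B, an autophagosome protein, rose by 0.73 with 4 of 4 probe sets higher, the BH3-only gene BBC3 by 0.70, the secreted factor GDF15 by 0.67 with 5 of 5 and the sestrin SESN2 by 0.57. LAMP3, a lysosomal protein, changed by −0.41, VEGFA by −0.23 (4 of 10 probe sets), NDRG1 by −0.18 (1 of 6) and ATG12, which is needed for autophagosome formation, by −0.28, while the other ATG12 probe set was 0.16 higher (adjusted p = 0.0246 when _x_at and _s_at were dropped) and their average stood at −0.062 (adjusted p = 0.249). The VEGFA call was lost when _x_at and _s_at were dropped (−0.15, adjusted p = 0.0855). The NDRG1 value was −0.044 with its probe sets averaged (adjusted p = 0.481), −0.013 with the most variable one (adjusted p = 0.903) and −0.12 when _x_at and _s_at were dropped (adjusted p = 0.257), and its call was also lost without sh-Ctrl replicate 2 (adjusted p = 0.0678). ER chaperones and genes of the XBP1 and ATF6 arms had 15 of 19 lower and 0 higher, or 78.9% lower against 14.2% of all genes (20.0% of which were higher), with 16 at an unadjusted p under 0.05 in limma (median −0.40), among them XBP1 (−0.51) and PDIA6 (−0.52). HYOU1, MANF and SDF2L1, with the smallest adjusted p-values of that list, changed by −0.77, −0.69 and −0.82.

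**Figure D4:**
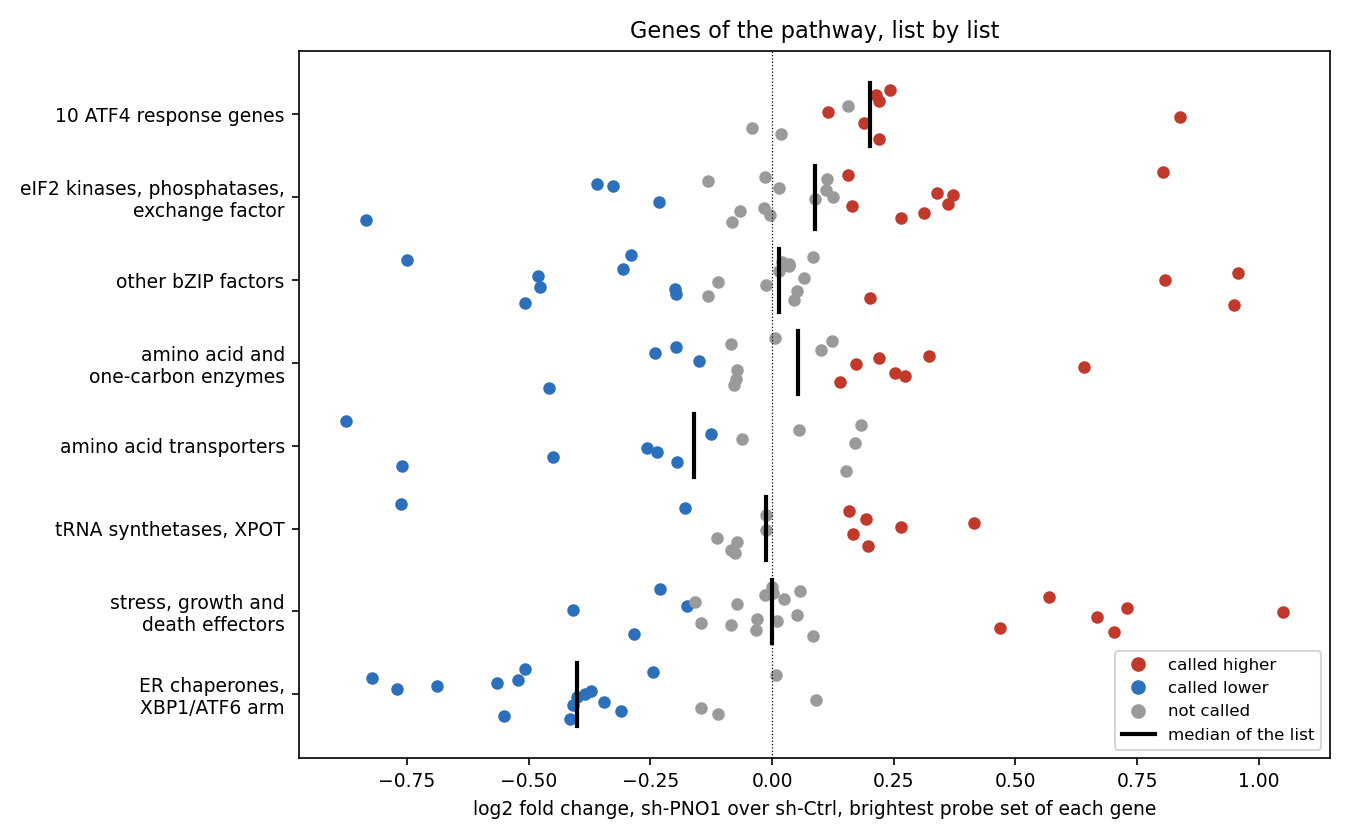
Log2 fold change (horizontal axis, sh-PNO1 over sh-Ctrl) of the brightest probe set of each gene in the 10 ATF4 response genes and 7 pathway lists; red points were called higher, blue lower and grey neither, and black bars are medians. The bar of the ATF4 response genes is at 0.20, that of the transporters at −0.16 and that of the ER list at −0.40.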

How the data were processed

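HCT116 cells with sh-PNO1 or sh-Ctrl were measured on 1 Affymetrix expression array per sample, 6 in all, and groups came from the sample titles. The authors deposited 1 intensity per probe set, linear in scale, made with RMA per the submitters' processing notes. RMA normalises between arrays and so hides any global change of messenger level. Its version and background step and the build: not given in the sources used here. The planned test assumed log2 values, so log2 was taken first. Of 49395 probe sets 102 controls were left out, and 44988 had 1 gene symbol. The 23 background probe sets averaged 2.53 to 773; 7 of the 25 probe sets exceeded all of them and 0 lay below their median of 4.24, and detection of the others could not be judged without GC content.

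All probe sets, and separately all genes by the probe set with the highest mean, were fitted in limma 3.58.1 (R 4.3.3) with lmFit and eBayes, without covariates, with Benjamini-Hochberg adjustment. These fits were first run on simulated data with known changes. The genes and lists were chosen with earlier results of these data known. Named are the 10 genes, PNO1 and the 5 genes most like ATF4. From each list come up to 4 called genes with the smallest adjusted p and genes of counts of 5 or fewer. The eIF2 kinases, PSPH, SLC7A11, SLC1A4, SLC43A1, ATF5, CEBPG, XBP1 and the markers named singly were added after their values were seen. Alternatives were the replicate block, other settings of limma, scaling, an offset, dim probe sets left out, other ways to combine probe sets and each array left out in turn. Symbols were matched to RefSeq by gene identifier for all 10 genes, with coordinates of GRCh38.p14; promoter sequences are RefSeq's. The number of arrays limits the precision.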

Additional observations from a re-analysis of the deposited data

How the results depend on the processing

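The 14 called probe sets numbered 11 to 15 with 1 array left out and 12 to 19 under the other settings at an adjusted p of 0.05; an adjusted p under 0.01 gave 7, and a test against a log2 change of 0.1, chosen after seeing the data, gave 4 (both of DDIT3, 1 of STC2 and 1 of PSAT1). None of the 25 was called lower in these fits. The 7 genes numbered 4 to 5 with 1 array left out (4 without sh-PNO1 replicate 1 and without sh-Ctrl replicate 3) and 4 at an adjusted p under 0.01. The count was also 4 when _x_at and _s_at probe sets were dropped, which removes ATF4, DDIT3, CEBPB and PPP1R15A from the fit. The losses were among CHAC1, PSAT1 and PHGDH, and PPP1R15A was gained without sh-PNO1 replicate 2 and with equal housekeeping means. TRIB3, STC2 and ASNS remained called in every setting of the gene fit and DDIT3 in every one that held it. Replicate numbers did not pair the arrays (correlations of same-numbered deviations of −0.036, 0.097 and −0.032), and a replicate block gave 14 probe sets, 5 genes and 71 list genes, against 75. Values near 0 changed sign: ATF4 stood at −0.010 with quantile normalisation repeated, CEBPB at 0.011, EIF2AK1 at 0.049 and EIF2AK4 at 0.036 with equal housekeeping means, and EIF2AK1 at 0.0028 with array weights and 0.14 when _x_at and _s_at were dropped. With 1 array left out, the dim TRIB3 probe set ranged from −0.0047 to 0.15, the flat PSAT1 probe sets from −0.030 to 0.093 and from −0.038 to 0.092, EIF2AK1 from −0.023 to 0.0089 and EIF2AK4 from −0.082 to 0.068. EIF2AK1 was called lower by its most variable probe set (−0.43, adjusted p = 0.00166). ATG12 was 0.16 when _x_at and _s_at were dropped, and CEBPG 0.13 with probe sets averaged and 0.46 with the most variable one. Equal housekeeping means shifted all values by 0.053, which brought PPP1R15A to 0.21 (adjusted p = 0.0468). Among named list genes the same scaling lost the calls of CEBPG, IMPACT, MTHFD1, NDRG1 and XPOT (adjusted p = 0.0577 to 0.157). It added calls of PSPH and of probe sets of CHAC1, PSAT1 and PHGDH (adjusted p = 0.0122 to 0.0334). Other causes were not tested.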

Other observations

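CEBPG, a C/EBP partner of ATF4, gave opposite values on its 2 probe sets: the brighter changed by −0.20 (adjusted p = 0.0102 over all genes) and the other rose by 0.46 (adjusted p = 0.00111 with the most variable probe set of each gene). ATF5, another bZIP factor under translational control in this response, changed by −0.51 with 4 of 4 probe sets lower. SLC7A11, the cystine transporter, stood at 0.055 on its brightest probe set without a call (adjusted p = 0.325), although 2 of its 3 probe sets were called higher, and the mean of all 3 was 0.16 (adjusted p = 0.00892).

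The genes whose values over the 6 arrays, relative to the sh-Ctrl mean, lay nearest those of ATF4 were KIF5B, GAPDH, UMPS, TWF2 and RPL37, with root mean square differences of 0.0071 to 0.011 on the log2 scale. Of the 9056 genes of above-median brightness 860 lay within 0.05, so this likeness is common.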
